A study of Mus musculus with 10 samples.

Results

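Clusters of strong distal open sites were followed in muscle stem cells, the satellite cells that repair skeletal muscle, after exposure to prostaglandin E2 (PGE2). In the peak list of young cells given PGE2, rows that touched or overlapped were merged into 131656 regions. A region was called a strong distal site when its highest summit was at least 10-fold over background and it lay more than 2 kb from either end of every protein-coding gene of the mm10 (GRCm38) genome. These criteria kept 25356 sites, and sites separated by no more than 12.5 kb were stitched into 15973 groups. The members are the 517 groups with 5 or more sites, which hold 3398 sites or 13.4% of the strong distal ones. The young folds and positions chose the members, so their number, height and spacing are a description.

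The study measured chromatin accessibility by ATAC-seq, an assay that reads where a transposase can insert sequencing adapters. Cells positive for α7-integrin and CD34 were sorted from C57BL/6 mice, either young at 8 to 20 weeks or aged at 20 to 25 months, and kept for 2 h in a serum medium with bFGF to which PGE2 in DMSO or 0.1% DMSO alone was added. The 10 libraries comprise 2 of young cells with PGE2 and 2 with vehicle, and 3 of aged cells with PGE2 and 3 with vehicle. All groups shared the sort, the medium and the time in culture. The values used here are 1 peak list for young and 1 for aged cells after PGE2. Which libraries entered each list is not given in the sources used here, and the vehicle libraries were not analysed here. With 1 list per age there is no replicate error and no test between ages, and a difference of age cannot be told apart from one in the response to PGE2. Depth per library is unknown.

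Distal open sites away from gene starts often mark enhancers, stretches where transcription factors bind and act on a gene that can lie far off. Enhancers tend to gather around genes that define a cell type, and dense runs of them are known as super-enhancers when activator signals are also high, which was not measured here. PGE2 acts through G protein-coupled receptors, several of which raise cAMP, and it is known to stimulate muscle stem cells after injury.

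The sequences below come from RefSeq tables of GRCm38.p6 and belong to loci that the clusters contain. Of 1005 miRNA hairpins with a position, 21 lay inside 16 clusters. Those of known muscle or differentiation miRNAs are shown 5′ to 3′ with the seed, bases 2 to 8, in capitals.
miR-206-3p: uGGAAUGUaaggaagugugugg
miR-133b-3p: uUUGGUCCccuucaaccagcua
let-7b-5p: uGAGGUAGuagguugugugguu
let-7c-5p: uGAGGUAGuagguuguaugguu
miR-27b-3p: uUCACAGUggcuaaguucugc
miR-24-3p: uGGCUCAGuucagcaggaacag
The let-7b and let-7c strands share the seed GAGGUAG, and the other 4 have a seed of their own. miR-206 and miR-133b are muscle-specific miRNAs transcribed with the long noncoding RNA Lincmd1, which the same cluster overlapped. miR-27b is known to act on Pax3 transcripts in muscle stem cells. The let-7 family is known for its rise as cells differentiate.

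Strong distal sites can hold starts that lie inside a gene or belong to a noncoding gene, because the rule measured distance to the outer ends of protein-coding spans. Of RefSeq start windows, here 250 bases before a listed start, 194 overlapped 158 clustered sites. The listed start itself lay inside 153 clustered sites, and 60 sites held one of a protein-coding gene. The 5 windows shown were chosen after their values and motif matches were seen. Each lies in the strongest or next strongest site of its cluster, with the summit 7 to 328 bp from the listed start, and each holds a match. Of the 107 windows in such sites 67 hold none, so the 5 are illustrations and not typical. Capitals mark matches on either strand to 5 short motifs, the E-box CAGCTG bound by MyoD-type factors, the AP-1 site TGANTCA, the cAMP response element TGACGTCA, the TEAD site GGAATG and the RUNX site TGTGGTT.
Runx1: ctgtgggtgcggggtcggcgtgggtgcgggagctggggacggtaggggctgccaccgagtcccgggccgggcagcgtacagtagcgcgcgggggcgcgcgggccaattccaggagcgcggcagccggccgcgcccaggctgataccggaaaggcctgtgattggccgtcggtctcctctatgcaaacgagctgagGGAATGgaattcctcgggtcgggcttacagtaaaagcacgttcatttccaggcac
Nr4a1: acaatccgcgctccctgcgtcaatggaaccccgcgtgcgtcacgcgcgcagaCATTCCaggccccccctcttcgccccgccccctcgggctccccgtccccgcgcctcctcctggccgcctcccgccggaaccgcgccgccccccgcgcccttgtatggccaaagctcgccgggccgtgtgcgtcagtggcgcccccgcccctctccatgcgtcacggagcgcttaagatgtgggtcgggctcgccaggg
Zeb2: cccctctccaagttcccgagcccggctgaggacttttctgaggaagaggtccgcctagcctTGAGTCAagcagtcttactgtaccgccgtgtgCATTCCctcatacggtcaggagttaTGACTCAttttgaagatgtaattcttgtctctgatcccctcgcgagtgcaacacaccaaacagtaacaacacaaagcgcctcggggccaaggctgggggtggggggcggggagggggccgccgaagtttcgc
Gm32287: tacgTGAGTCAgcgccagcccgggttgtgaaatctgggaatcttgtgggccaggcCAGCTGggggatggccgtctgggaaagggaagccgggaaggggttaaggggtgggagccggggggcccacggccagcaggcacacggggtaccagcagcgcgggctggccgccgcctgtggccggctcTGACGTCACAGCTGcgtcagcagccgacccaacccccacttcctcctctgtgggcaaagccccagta
D130051D11Rik: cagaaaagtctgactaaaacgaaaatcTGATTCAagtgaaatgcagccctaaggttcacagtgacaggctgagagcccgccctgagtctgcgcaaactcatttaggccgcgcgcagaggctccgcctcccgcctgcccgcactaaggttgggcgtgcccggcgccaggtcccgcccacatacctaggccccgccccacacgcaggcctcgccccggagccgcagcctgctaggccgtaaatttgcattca
The Runx1 window is chr16:92697330-92697579 on the minus strand and holds 1 TEAD match. The Nr4a1 window, chr15:101266596-101266845 on the plus strand, also holds 1 TEAD match. The Zeb2 window, chr2:45110278-45110527 on the minus strand, holds 2 AP-1 matches and 1 TEAD match. The noncoding gene Gm32287 has 4 windows in its site, in the cluster linked to Cebpb. The one shown, chr2:167777415-167777664 on the minus strand, has the most matches, with 2 E-boxes, 1 AP-1 match and 1 cAMP response element, while the one whose start is nearest to the summit, at 30 bp, has none. That element and an E-box adjoin, so TGACGTCA and CAGCTG form a continuous run of capitals. The window of the noncoding gene D130051D11Rik, chr15:85634346-85634595 on the plus strand, lies in the cluster that also holds let-7b and holds 1 AP-1 match.

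Motif shares were then taken over all such windows. The E-box was in 19.6% of the 194 windows in clustered sites (exact Clopper-Pearson 95% interval 14.2% to 25.9%), in 15.6% of the 1770 windows in other strong distal sites and in 13.0% of all 32851 windows. The AP-1 letters were in 10.8% (6.83% to 16.1%), 7.80% and 6.75% respectively. The cAMP response element was in 2.06%, 1.64% and 1.55%, the TEAD letters in 11.9%, 12.8% and 12.6%, and the RUNX letters in 5.16%, 3.33% and 4.396%. Apart from the E-box in all windows, whose 13.0% fell below the interval of the clustered sites, and AP-1, whose 6.75% did so narrowly, each background value lay inside the interval for clustered sites. These comparisons mix kinds of gene, and 119 of the 194 windows belong to noncoding genes. Against all 11588 windows of such genes, the 119 held the E-box in 21.8% (14.8% to 30.4%) against 14.6%, AP-1 in 14.3% (8.55% to 21.9%) against 7.88% and the cAMP response element in 3.36% (0.923% to 8.38%) against 0.854%, each background value lying below the interval. The TEAD and RUNX letters were in 14.3% and 5.88% against 14.3% and 5.45%. The 11588 windows are not limited to open sites, and noncoding windows in other strong distal sites were not counted apart. The cAMP response element rests on 4 windows, and most of them lie in the site that holds the start of Gm32287. There the windows of Gm14321 and Gm32287 overlap, so an element can be counted more than once. Windows of 5033421B08Rik that nearly coincide each count for the E-box. The intervals treat windows as independent, so they are too narrow, and these differences are not established. A match is no proof of binding.

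Before the results, 2 clusters stand apart by position. A run of 16 sites lies on an unplaced scaffold, near no gene of the table, with folds up to 607.3, and 89.5% of that cluster was covered by young and 92.35% by aged regions. Another cluster lies on chromosome Y. The main shares over clustered sites are given with and without both. Open gene ends were also counted for lists of marker genes. All 30 genes of a list of muscle stem cell identity and quiescence had a region within 1 kb of a gene end in both lists. Among them were Pax7, at 26.7-fold in the young and 16.6-fold in the aged list, and Myf5, at 52.4-fold and 41.9-fold. This was not particular to that list, since 22 of 22 immediate early and AP-1 genes and 11 of 12 ubiquitous genes had one too. The share over all genes is not given here. Of 12 immune markers 9 had no region there in either list, Ptprc among them, and Pecam1 of the endothelial list had none. Endothelial markers had a region in both lists for 7 of 12 genes, fibroblast markers for 9 of 12, smooth muscle and pericyte markers for 12 of 12 and glial markers for 7 of 10. The part of such cells in the clusters was not tested.

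Most clusters were short runs. Of the 517 clusters, 205 had 5 sites, 119 had 6 and 85 had 7, so that 409 (79.1%) had 5 to 7, while 38 had 10 or more and the longest run had 22. Their span was 9.855 to 118 kb with a median of 31.8 kb, and the median gap between neighbouring sites was 3494 bp. Together they spanned 17.7 Mb, of which the sites took 5.02 Mb. Site folds ran from 10.04 to 607.3 with a median of 20.8, and the strongest site of a cluster was a median of 4.52 times as high as its weakest. A cluster thus joined sites of unequal height. Of the 3398 sites 1014 were at 10-fold to 15-fold, 1015 at 15-fold to 25-fold, 929 at 25-fold to 50-fold and 440 higher. The members just inside the rule were close to those just outside it. Clusters of 5 sites had a median fold of 21.0 and groups of 4 sites 20.4, and 2355 distal regions lay between 10-fold and 11-fold against 2811 between 9-fold and 10-fold.

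**Figure D1:**
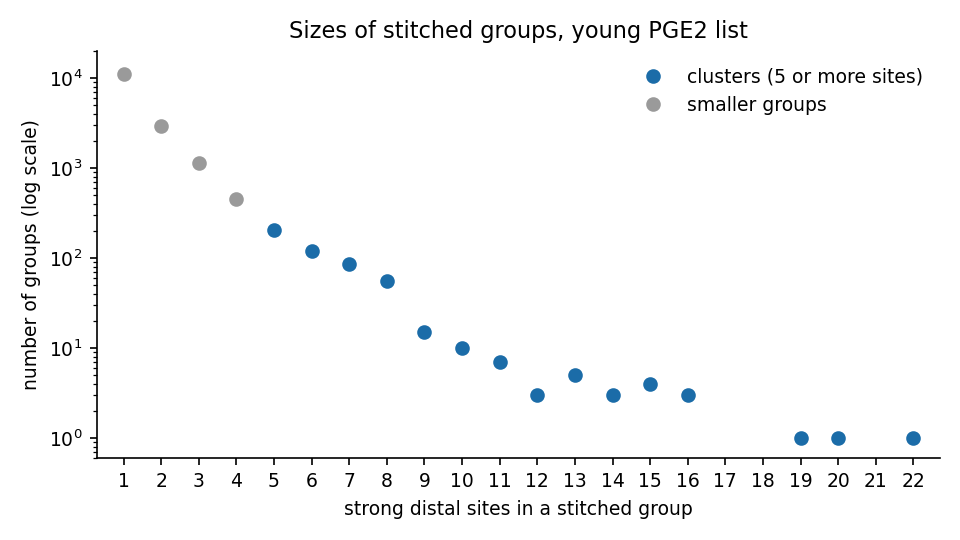
Number of stitched groups (y axis, log scale) by the number of strong distal sites in the group (x axis), for the young PGE2 list. Blue points are the clusters of 5 or more sites, from 205 clusters of 5 sites down to 1 cluster of 22, and grey points are smaller groups, with 449 groups of 4 sites just outside the rule.

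The clusters were unevenly placed along the genome. Chromosome 4 held 50 clusters with 19.2% of its strong distal sites, whereas chromosome 19 had 6.90% and chromosome X had 2.92% of theirs in clusters, with 8 and 2 clusters. The autosomes held 513 of the 517. Of all clusters 269 lay wholly inside the span of a protein-coding gene, 78 overlapped a span in part and 170 lay inside none. Of those 170, 113 (66.5%) overlapped the span of a long noncoding RNA gene, against 242 (46.8%) of all 517 clusters. The share in other stretches of like length is not given here.

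Every clustered site was present in aged cells. All 3398 sites shared at least 1 bp with an aged region (100%, exact Clopper-Pearson 95% interval 99.9% to 100%), against 99.9% of all strong distal sites, and the share was also 100% of 3376 sites without the scaffold and chromosome Y. Read as up to 3 counts, a limit on 1 side that is tighter than the interval on both sides, the 0 absent sites allow a share of up to 0.0883%. All 517 clusters therefore kept every site, and in each of the 3398 the young summit itself lay in an aged region, as for 99.9% of all strong distal sites. Outside the clusters 26 of 21958 strong distal sites had no aged region. Presence at this level does not set clustered sites apart, since the background is nearly complete, and by comparison 71.8% of all young regions had an aged overlap. Intervals cover counting error only, and sites of 1 cluster are not independent.

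Coverage by aged regions was less complete. Aged regions covered at least 50% of the length of 3270 clustered sites (96.2%, 95.5% to 96.8%), against 93.9% of all strong distal sites and 93.5% of those outside clusters. Without the scaffold and chromosome Y the clustered share was 96.21%. Among sites of 10-fold to 15-fold in the young list it was 93.9% for clustered and 88.7% for other sites. Between 15-fold and 25-fold the shares were 95.6% and 93.9%. The clustered share was not higher from 25-fold to 50-fold, at 98.1% against 98.4%, or above that, at 99.3% against 99.6%. In 415 clusters every site was covered over at least 50% of its length. Per cluster, the share of site length covered ran from 50.5% to 99.9% with a median of 84.1%. Young regions of any height covered a median of 35.7% of a cluster's span and aged regions 28.95%. A clustered site was touched by 2 or more separate aged regions in 704 cases (20.7%), against 15.5% of all strong distal sites and 14.7% of those outside clusters, and in 20.76% of clustered sites without the scaffold and chromosome Y. Clustered sites were also wider, with 18.9% over 2 kb against 9.29% of the others, and width was not separated from this count.

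Height within the aged list differed between clustered and other sites. An aged region of at least 10-fold, over that list's own background, overlapped 2627 clustered sites (77.3%, 75.9% to 78.7%), against 66.6% of all strong distal sites and 65.0% of those outside clusters (64.3% to 65.6%). Without the scaffold and chromosome Y the clustered share was 77.2%. At the edge of the rule the shares were close, with 76.4% of sites in clusters of 5 and 76.7% in groups of 4, so this height is not particular to the clusters. Clustered sites were taller in the young list to begin with, so the shares were also taken within classes of young fold. Among sites of 10-fold to 15-fold, 41.4% of clustered (38.4% to 44.5%) and 29.5% of other sites (28.5% to 30.5%) reached 10-fold in the aged list. Between 15-fold and 25-fold the shares were 83.0% (80.6% to 85.3%) and 72.7% (71.6% to 73.8%). Without the scaffold and chromosome Y the clustered shares in these classes were 40.8% and 82.9%. From 25-fold to 50-fold they were 99.5% and 98.9%, and all sites above that reached it in both sets.

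In the lower classes, before any split by width, the share was ordered by group size. Among sites of 10-fold to 15-fold it was 25.5% for sites alone, 34.2% in groups of 2 to 4, 39.9% in clusters of 5 to 9 and 50% in clusters of 10 or more (41.7% to 58.3%), or 47.2% for the last without the scaffold. Between 15-fold and 25-fold the shares were 69.9%, 75.7%, 82.8% and 84.7%. The intervals of the last 2 size classes overlapped, while sites alone lay below every other size class in both fold classes. Width moved with size, since sites of 10-fold to 15-fold had a median width of 883 bp in clusters and 730 bp when alone. Counting only aged summits inside the site and splitting by width, sites of 10-fold to 15-fold and under 700 bp reached 10-fold in 31.9% of clustered (26.6% to 37.7%) and 18.0% of other sites (16.8% to 19.3%). At 700 to 1200 bp the shares were 38.8% (34.3% to 43.5%) and 36.9% (35.3% to 38.6%), with overlapping intervals. At 1200 bp or more they were 53.8% (47.7% to 59.8%) and 40.85% (38.1% to 43.6%). The gap between clustered and other sites was thus not seen at the middle width. The order by group size also broke within width classes. Between 10-fold and 15-fold at 700 to 1200 bp, groups of 2 to 4 were at 40.7% and clusters of 5 to 9 at 36.6%, and under 700 bp clusters of 5 to 9 were at 32.4% and larger ones at 28.95%, each pair with overlapping intervals. Between 15-fold and 25-fold at 700 to 1200 bp, clusters of 10 or more were at 73.6% and those of 5 to 9 at 82.7%, again with overlapping intervals. Sites alone had the lowest share in each width class of both fold classes, with intervals that overlapped those of larger groups in several of them. Between 15-fold and 25-fold the clustered share was higher in each width class, at 65.1% against 53.3%, 81.6% against 73.5% and 88.3% against 83.9% from narrow to wide, with intervals that overlapped in the narrow and the wide class.

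**Figure D2:**
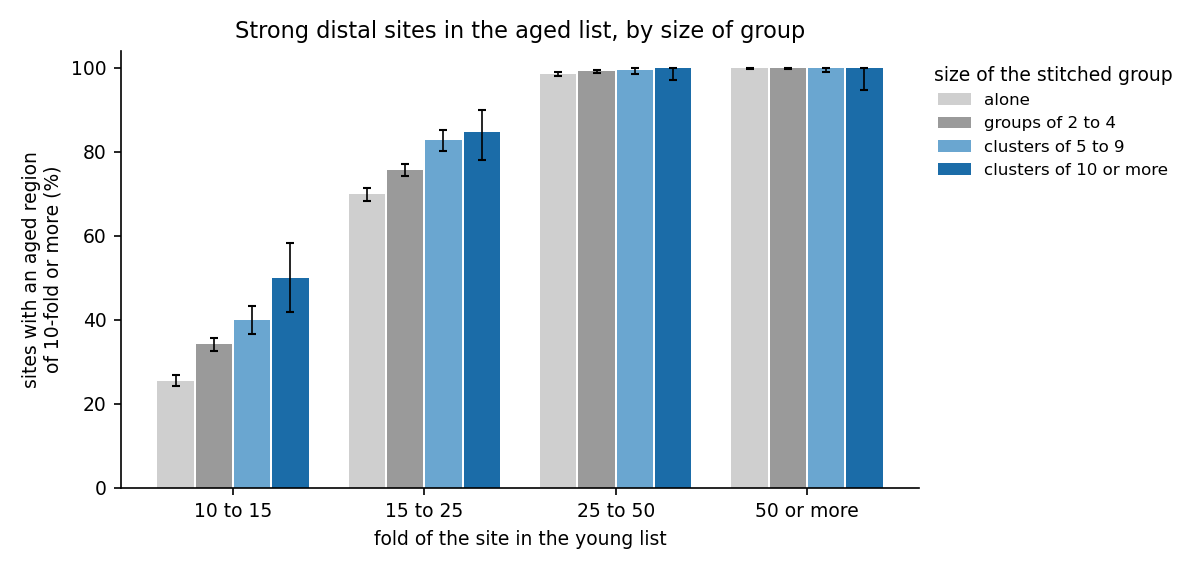
Share of strong distal sites overlapped by an aged region of at least 10-fold (y axis, percent), by class of young fold (x axis) and by size of the stitched group (shades), with exact Clopper-Pearson 95% intervals over sites as error bars. In the class of 10-fold to 15-fold the share was 25.5% for sites alone and 50% in clusters of 10 or more, and from 50-fold all 4 bars are at 100%.

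Counted per cluster, 129 clusters had every site at 10-fold or more in the aged list, 298 had at least 5 such sites, 35 had fewer than 50% of their sites there, and 1 cluster had none. Building clusters by the same rule in the aged list gave 18634 strong distal sites and 342 clusters. Of the young clusters 284 (54.9%) were overlapped by an aged cluster, and of the aged clusters 283 (82.7%) by a young one. Every aged cluster overlapped some group of young strong distal sites. The aged list holds fewer regions at 10-fold, and taking its highest 25356 distal sites instead gave 641 aged clusters, which overlapped 418 young clusters (80.85%), while 416 of the 641 (64.9%) overlapped a young cluster.

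The order of sites inside a cluster was largely shared. The strongest site was the same in both lists in 411 of 517 clusters (79.5%), and in 29 of the 38 clusters of 10 or more sites. In those 38 clusters Spearman's rho between young and aged folds over the sites was 0.626 to 0.988 with a median of 0.8785, a description over 10 to 22 sites that share libraries and differ in width.

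The largest cluster, of 22 sites, spanned chr17:84025858-84126859 and lay 57065 bp from Zfp36l2, which encodes an RNA-binding protein that promotes mRNA decay. Young folds were 10.34 to 77.3 and aged folds 5.286 to 64.49, and 21 of the 22 sites reached 10-fold in the aged list. The tallest site differed between the lists. Inside Mbnl2, a muscleblind splicing regulator, 20 sites over chr14:120280046-120382388 ran from 10.65 to 71.0 in young and 8.554 to 49.26 in aged cells, and 18 reached 10-fold in the latter. The third, of 19 sites at chr6:31064636-31172465, overlapped no protein-coding gene and lay in the noncoding gene Lncpint, with Klf14 the nearest coding gene end at 105646 bp. Of its sites 14 reached 10-fold in the aged list, and aged regions covered 70.1% of the site length.

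The cluster of 16 sites at chr15:85598525-85716505 lay 16704 bp from Wnt7b, a Wnt ligand, and contained the hairpins of let-7c-2 and let-7b printed above. These hairpins were 2104 and 1398 bp from the nearest strong site, not within a site. Its tallest site, 113.4-fold in young and 84.91-fold in aged cells, was the one that holds the start of D130051D11Rik. In all 12 of 16 sites reached 10-fold in the aged list. Egfr, the receptor of epidermal growth factor, hosted 14 sites at chr11:16769067-16851671 with a top fold of 126.8 in young and 91.45 in aged cells, and 13 reached 10-fold in the latter. Errfi1, whose product inhibits that receptor, lay 9931 bp from 12 sites at chr4:150775608-150843865, with 11 at 10-fold in aged cells and a top fold of 83.99 against 59.06.

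Other large clusters had more sites below 10-fold in the aged list. Lhfpl2, a membrane protein gene, hosted 16 sites and 8 reached it, with aged folds from 2.883 to 36.43. In Col4a2, which encodes a chain of the basement membrane collagen IV, 8 of 15 sites at chr8:11333135-11420105 did so. The 7 sites of the Col4a2 cluster that did not had young folds of 11.71 to 19.46, and every site above that range reached it. Of the remaining clusters among the 12 with most sites, Rbms1, an RNA-binding protein gene, had 11 of 15 at 10-fold in the aged list, Denn2b 13 of 15, Septin9, a cytoskeletal GTPase gene, 12 of 15, and Sh3pxd2b, an invadopodia adaptor gene, 9 of 14. Outside gene spans, clusters of 13 sites each near Gm46353 and near Lrrc74a had 10 and 12 such sites.

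**Figure D3:**
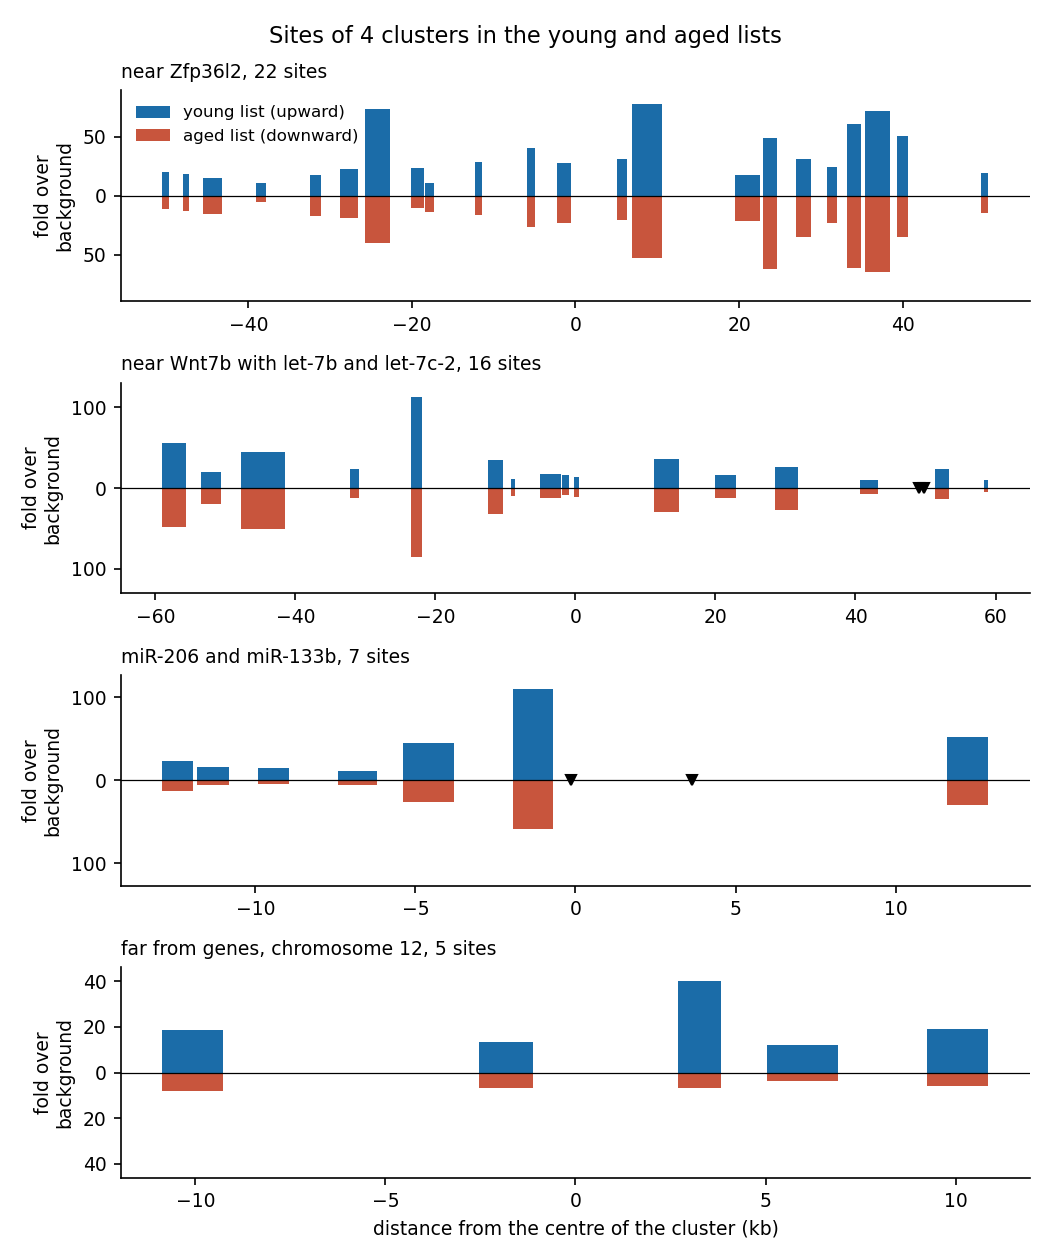
Sites of 4 clusters by distance from the cluster's centre (x axis, kb), with the fold over background upward for the young list and downward for the aged list (y axis), drawn over the width of the young site, and black triangles at the miRNA hairpins. Near Zfp36l2 21 of 22 sites reach 10-fold downward, while in the chromosome 12 cluster the aged folds are all under 10.

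Some clusters departed from this pattern and were chosen after their values were seen. At chr12:29120464-29142189, 252970 bp from the nearest coding gene end (Eipr1) and over the noncoding gene Gm31333, the 5 sites were at 18.6, 13.5, 40.1, 12.2 and 18.9-fold in young and at 7.93, 6.78, 6.92, 3.604 and 5.91-fold in aged cells. None reached 10-fold, and aged regions covered 52.8% of the site length. Near Tnc, which encodes the matrix protein tenascin-C, the 5 sites at chr4:64057726-64088333 were at 37.1, 12.5, 43.5, 56.1 and 13.3-fold in young and 10.2, 2.40, 8.79, 17.4 and 3.70-fold in aged cells. Coverage there was 51.4%, and 2 of 5 sites reached 10-fold. In Fgfr1, a fibroblast growth factor receptor gene, young regions covered 93.3% of the cluster at chr8:25524244-25559736 and aged regions 41.8%, and coverage of its sites was the lowest of all clusters at 50.5%. At chr10:120616187-120647361, over the noncoding gene 4930471E19Rik, 1 of 6 sites reached 10-fold in the aged list, at 65.6-fold, and the others were at 3.796 to 7.016. Folds belong to each list's own background, and lower aged folds were not limited to these clusters. The median gene end was at 78.8-fold in young and 47.9-fold in aged cells for ubiquitous genes. For muscle stem cell identity and quiescence genes it was at 53.1-fold and 36.1-fold. A lower aged fold, here or at the clusters below, does not by itself show a loss at that locus, and no error can be given.

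The miR-206 and miR-133b cluster, 7 sites at chr1:20666237-20692035, was also chosen after its values were seen. Its sites were at 22.9, 15.6, 15.4, 11.3, 45.1, 110.0 and 51.7-fold in young cells and at 13.1, 6.15, 4.47, 6.15, 26.1, 58.0 and 29.7-fold in aged cells. The tallest site, 585 bp from the miR-206 hairpin, was the same in both lists, and 4 of 7 sites reached 10-fold in the aged list. Aged regions covered 63.7% of the site length. No aged cluster overlapped it, also with equal numbers of sites. In contrast, the cluster with miR-23b, miR-27b and miR-24-1, 5 low sites at chr13:63293407-63317079 in Aopep and Fancc, ran from 10.04 to 18.1-fold in young and 10.09 to 19.1-fold in aged cells, with 5 of 5 sites at 10-fold in both.

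**Figure D4:**
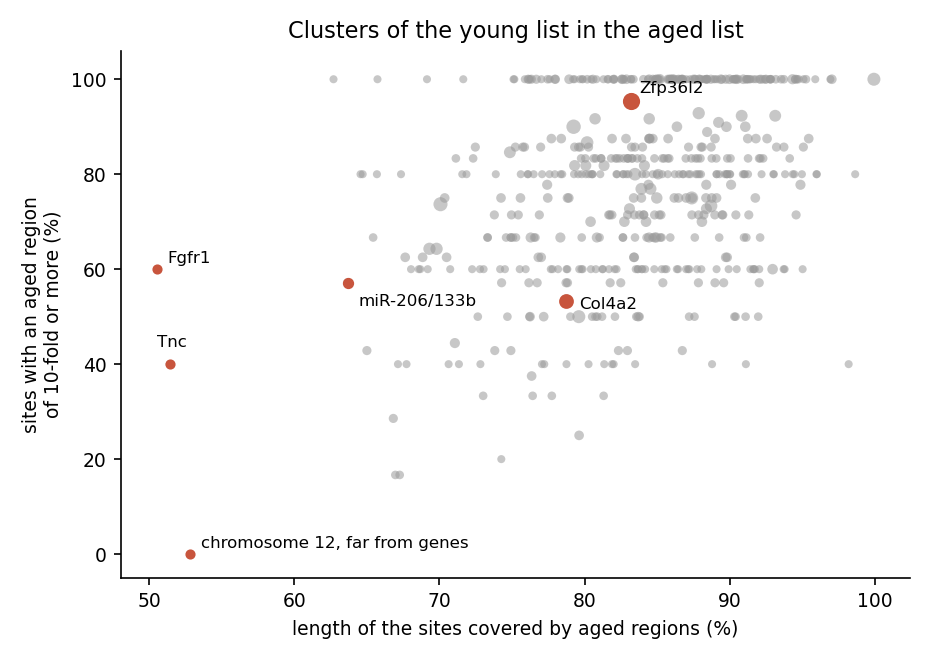
Each point is a cluster, placed by the share of its site length covered by aged regions (x axis, percent) and the share of its sites with an aged region of at least 10-fold (y axis, percent), with larger points for more sites. Labelled in red are Fgfr1, Tnc and the chromosome 12 cluster, at 50.5%, 51.4% and 52.8% of site length, the miR-206 cluster at 63.7%, and the larger Zfp36l2 and Col4a2 clusters.

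Clusters were linked to the protein-coding genes they overlapped or, where there was none, to the nearest gene end within 100 kb, which does not show that they act on the gene. In all 470 of 21900 genes (2.15%) were linked, 32 clusters had no linked gene, and 47 genes had 2 or more clusters. The cluster at chr18:37823662-37852837 overlapped the spans of many protocadherin gamma genes, and each of them counts among the 470. Linked genes were long, with a median span of 90.4 kb against 17.15 kb for all genes, and the share linked was 0.658% of genes under 20 kb and 8.99% of those of 200 kb or more. Tns1, Pde4b, Tcf4, Bach2, Pakap, Frmd4a, Nfia, Nfib and Deptor had 3 clusters each. Of 307 genes in 16 lists 38 (12.4%) were linked. The lists were chosen with earlier results of these data known, and their shares stand beside 2.15% as a description.

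Muscle stem cell identity and quiescence genes were linked in 8 of 30 cases, and their median span was 26.6 kb. These were the receptors Notch1 and Notch2, whose signal keeps the cells quiescent, the transcription factors Foxo3 and Nfix, the growth arrest gene Gas1, the TGF-beta co-receptor gene Tgfbr3, the FGF receptor gene Fgfr4 and the caveolae gene Cav1. Notch2 held 9 sites and 7 reached 10-fold in the aged list. The Notch1 cluster, which extends beyond the gene, had 8 lower sites, from 10.12 to 27.3-fold in young and 6.87 to 21.3-fold in aged cells. Of these sites 4 reached 10-fold in the aged list. The Foxo3 cluster had 1 tall site, 80.0-fold in young and 64.0-fold in aged cells, among 5 of at most 21.3 and 20.5. Pax7, Myf5 and Calcr, which mark these cells, were linked to no cluster.

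Of 22 genes of myogenic differentiation and fusion 1 was linked, the commitment factor gene Myod1. Its 5 sites at chr7:46336792-46354345, 22129 bp from the gene, were at 78.7, 13.1, 71.8, 45.9 and 37.6-fold in young and 51.7, 7.26, 48.97, 25.95 and 20.2-fold in aged cells. The order of the 5 was the same in both lists and 4 reached 10-fold in aged cells. Myog, the factor of terminal differentiation, was not linked and had a gene end at 3.57-fold and 3.65-fold.

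Signalling and transcription factor lists had links to a part of their genes. Among 36 genes of PGE2 and cAMP signalling, 4 were linked, and 3 of these encode cAMP-degrading phosphodiesterases, Pde3a, Pde4b and Pde4d, while Crtc3 encodes a coactivator of CREB. The other phosphodiesterase genes of the list, Pde3b, Pde4a, Pde7a and Pde8a, were not linked. Neither were the receptor genes Ptger1, Ptger2, Ptger3 and Ptger4. Pde4b had 3 clusters of 9, 8 and 5 sites, of which 7, 5 and 5 reached 10-fold in aged cells, with a top fold of 117.0 in young and 94.96 in aged cells. The linked phosphodiesterase genes span 257.6 to 1302 kb, a length class in which 8.99% of all genes were linked.

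Immediate early and AP-1 genes were linked in 3 of 22 cases, Fos, Myc and Nr4a1. The Nr4a1 cluster, shared with Grasp at chr15:101227845-101268253, had sites at 12.9, 14.5, 27.6, 91.2, 32.0 and 89.1-fold in young and 6.58, 8.94, 14.7, 74.9, 27.4 and 71.3-fold in aged cells, and the last of them holds the window printed above. Near Fos 2 of 5 and near Myc 4 of 5 sites reached 10-fold in the aged list. Of NF-kB and JAK-STAT genes 4 of 23 were linked, Cebpb, Lif, Socs1 and Socs3, the last with 10 sites of which 9 reached 10-fold in aged cells. The Cebpb cluster lay 62008 bp from this stress-induced factor gene and its tallest site, 108.9-fold in young and 75.3-fold in aged cells, holds the start of Gm32287.

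Runx, Tead and Hippo genes were linked in 5 of 17 cases. Their median span was 56.55 kb, and 4.17% of all genes of 50 to 100 kb were linked. They were Runx1, Tead1, which encodes a DNA-binding partner of YAP and TAZ, Wwtr1, which encodes TAZ, the TEAD cofactor gene Vgll4 and the angiomotin gene Amotl2. Runx1 had 2 clusters. In that at chr16:92605540-92655086 the 7 sites were at 101.3, 94.9, 22.4, 24.7, 34.6, 21.1 and 20.65-fold in young and 81.9, 73.4, 15.8, 17.35, 27.1, 21.5 and 14.9-fold in aged cells, all at 10-fold. In the other, which holds the printed internal start, 3 of 5 sites reached it, and the site with the start was the tallest at 122-fold and 72.9-fold. Vgll4 had 5 of 7 sites at 10-fold in aged cells and Amotl2 5 of 5.

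Extracellular matrix and adhesion genes were linked in 6 of 23 cases, Col4a1, Col4a2, Col15a1, Lamc1, Hspg2 and Cd44, and the first 5 encode components of basement membranes. The spans of all 6 overlap the cluster. The median span of this list was 74.7 kb, and 4.17% of all genes of 50 to 100 kb were linked. Lamc1 had 7 of 8 and Cd44, a hyaluronan receptor gene, 6 of 8 sites at 10-fold in aged cells. TGF-beta, BMP and Wnt genes were linked in 2 of 25 cases, the signal transducer Smad3 and the inhibitor of bHLH factors Id3, each with 5 of 5 sites at 10-fold in aged cells. Of 19 chromatin regulators 0 were linked. Their median span was 81.5 kb, and at the 4.17% of all genes of 50 to 100 kb a list of that size gives less than 1 gene, so the 0 is near the background.

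Immune, glial and smooth muscle markers and genes of other organs had 0 of 12, 0 of 10, 0 of 12 and 0 of 20 linked. At the share of 2.15% over all genes each of these lists gives less than 1 gene, so these counts are near the background as well. Fibroblast markers had 2 of 12, Col3a1 and Gsn, and endothelial markers 1 of 12, Erg, whose 5 sites were at 52.0, 11, 33.2, 15.3 and 15.0-fold in young and 35.9, 8.36, 30.7, 13.6 and 17.1-fold in aged cells. Col3a1, a fibrillar collagen gene, had 4 of 5 sites at 10-fold in aged cells, and its gene end was at 39.4-fold in young and 16.4-fold in aged cells. Ubiquitous genes had 2 of 12, Eef1a1 and Ywhaz, which lay outside their clusters. Lists of 10 to 36 genes give shares with little precision, and the span of 24 of the 38 genes overlapped the cluster itself.

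**Figure D5:**
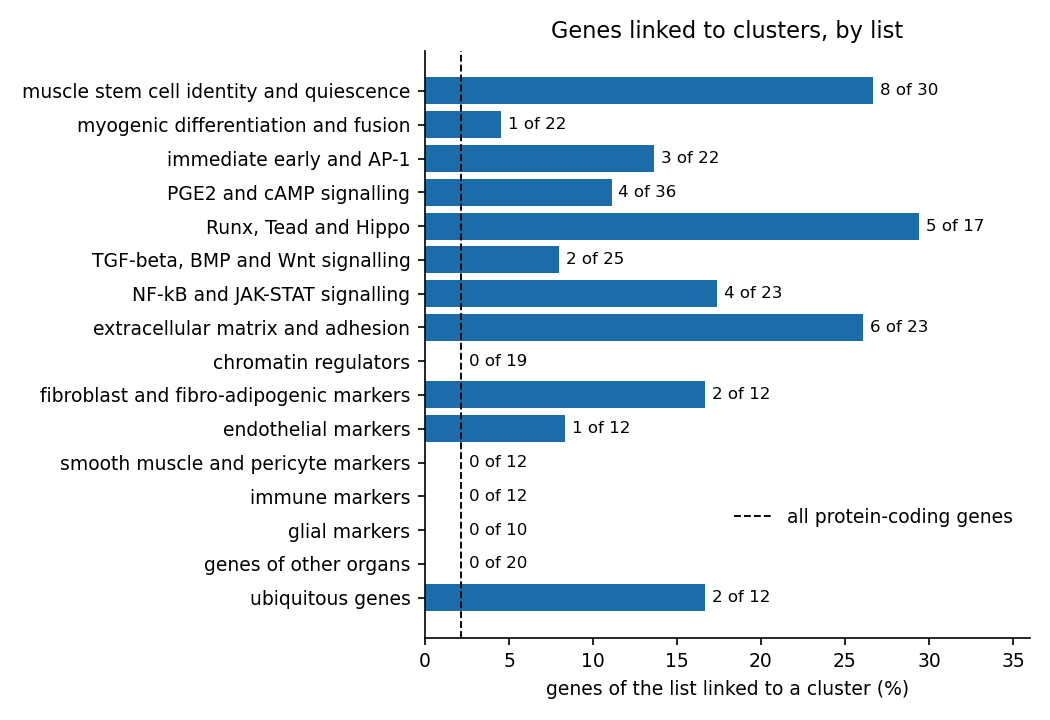
Share of the genes of each list that were linked to a cluster (x axis, percent), with the count beside each bar and the share over all protein-coding genes, 2.15%, as a dashed line. Runx, Tead and Hippo genes (5 of 17) and muscle stem cell identity genes (8 of 30) have the longest bars, and 5 lists have none linked. The dashed line takes no account of gene length.

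The spans of the clusters also hold weaker regions, which the rule did not use. Of 3221 young regions under 10-fold inside clusters 61.7% (59.98% to 63.4%) had an aged overlap, against 60.2% elsewhere. Below 3-fold the shares were 33.1% and 34.0%, with overlapping intervals. Between 3-fold and 5-fold they were 72.7% (69.8% to 75.4%) and 62.4% (61.9% to 63.0%), and between 5-fold and 10-fold 97.4% and 93.0%. Weaker regions inside clusters were also wider, with a median of 369 bp against 317 bp between 3-fold and 5-fold. Young regions with no aged overlap numbered 1234 in 407 clusters. Aged regions with no young overlap numbered 362 in 237 clusters, and of the 3944 aged regions under 10-fold in clusters 90.8% (89.9% to 91.7%) overlapped a young region, against 85.4% elsewhere. Some of these lie on the clustered sites themselves, which are young regions by the rule, so that part of this share is fixed by the choice of members. The young list is the longer one.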

How the data were processed

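Per the submitters' processing notes, ATAC-seq reads were mapped to mm10 (GRCm38) by Bowtie2. Not given in the sources used here are the peak caller's version and options, read filters and the libraries pooled. The deposited lists are in the narrowPeak layout, with 265507 young and 215838 aged rows. The fold ratio is the deposited enrichment of a summit over background, from the authors' caller. The −log10 p-value, −log10 q-value and display score are also the authors' deposited values and describe a peak, and the smallest −log10 q-value was 2.08 in the young and 2.16 in the aged list. Each fold is over its own list's background. Folds of both lists are printed side by side, but no difference between them was tested.

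Touching rows were merged, and overlap meant at least 1 bp. Gene ends came from the spans of 21900 protein-coding genes in a RefSeq table of GRCm38.p6, without transcript starts. Intervals are exact Clopper-Pearson at 95% over regions, sites or windows. They cover counting error only, since each age has 1 list with no value per library. PCR fragments carry no molecular identifiers. A count of 0 was read as up to 3 counts. Python 3.11.15, pandas 2.3.3 and scipy 1.17.1 were used, and the steps were tested on simulated data. Clusters were named by a rule: the 12 with most sites, the 6 with the lowest share present (all were at 100%, so none was added), up to 6 outside gene spans, and up to 4 per gene list. The members and lists were chosen with earlier results of these data known. A motif search of 300 bases round summits was planned. It needs a genome sequence, which was not used here, so it was left out and RefSeq start windows were searched instead, as a step added after the data were seen. Alternatives varied the stitching distance, fold minimum, distance from genes, cluster size, merging and overlap.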

Additional observations from a re-analysis of the deposited data

How the results depend on the processing

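The number of clusters followed the rule: 132 with stitching at 5 kb and 1049 at 25 kb, 802 at a minimum of 8-fold and 206 at 15-fold, and 966 with at least 4 and 312 with at least 6 sites. Clusters with every site present in the aged list then numbered 132, 1048, 800, 206, 964 and 312, and those overlapped by an aged cluster 66, 630, 473, 99, 574 and 161. The other 6 alternatives for the number of clusters stayed within 1.5 times of 517, including 417 when sites also had to lie over 2 kb from every RefSeq start, an alternative chosen after seeing the data. Presence depended on what counted as present. It was 96.23% with at least 50% of the site covered, 99.85% with an aged region of 3-fold or more and 77.31% with 10-fold or more, the last leaving 129 clusters complete. Counting only genes that overlap a cluster left 24 of the 38 listed genes. No paired analysis was possible because each age has 1 pooled list with no value per library, and for the same reason leaving out replicates could not be run. The depth of the lists is unknown, so no limit of detection can be given for it.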
